A study of Mus musculus with 16 samples.

Results

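The genes described are 35 genes of chromosome segregation and cell division, taken as the rows of the count table whose gene symbol equals a listed name. All 35 names were found among the 49671 genes of the table, and all 35 passed the filter on low counts that left 13940 genes for testing. They comprise 6 cyclins and other subunits that drive entry into mitosis, 6 genes of the spindle checkpoint and of the ubiquitin ligase it restrains, 6 kinetochore genes, 7 spindle genes, 7 genes of the chromosomal passenger complex and cytokinesis, and 3 genes of mitotic chromatin. The rule uses names alone, but the list was chosen with earlier results of these data known.

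RNA was read from natural killer (NK) cells that had been sorted as live CD45+ CD3- NKp46+ DX5+ cells, with 5000 to 10000 cells per library and the full-length Smart-seq2 protocol. All 16 libraries came from FVB/N mice of the genotype Cdh1F/F;Trp53F/F;Foxp3GFP-DTR that carried an orthotopically transplanted KEP mammary tumour of 100 mm2, so the control mice carried the same alleles and tumours. Mice received 25 ug of diphtheria toxin (DT) or PBS at T=0 and T=7, a time whose unit the labels leave out, and NK cells were taken from the axillary tumour-draining lymph node (LN) or from the lungs. That gives 4 groups of 4 libraries (PBS and DT in each tissue), which the design text calls biological replicates. In the Foxp3GFP-DTR allele the toxin receptor follows Foxp3, the factor that marks regulatory T cells, and DT kills cells that carry the receptor. The labels give neither the age of the mice nor whether animals were pooled.

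A dividing cell first copies its DNA, then enters mitosis when Cdk1 pairs with B-type cyclins. Kinetochores assemble on centromeres and bind spindle microtubules, the spindle checkpoint holds back the anaphase-promoting complex until all chromosomes are attached, and the passenger complex and a contractile ring then divide the cell. Transcripts of most of these genes accumulate late in the cell cycle and are low in resting cells. Mature NK cells in tissues are mostly at rest and divide when cytokines of the IL-2 and IL-15 family reach them.

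Promoter sequences were available for 30 of the 35 genes, from 250 bases before to 50 bases after the RefSeq gene start (GRCm38.p6). Promoters of late cell cycle genes are known for a CHR element, with the core TTTGAA, which is bound by the DREAM and B-MYB complexes, and for CCAAT boxes bound by NF-Y. The first 270 bases of 4 windows are shown because these genes rose with DT in the averaged comparison, 3 of them with both motifs and Cit with neither. Capitals mark each TTTGAA or CCAAT and its reverse complement, 5′ to 3′ on the strand of the gene.
Mki67: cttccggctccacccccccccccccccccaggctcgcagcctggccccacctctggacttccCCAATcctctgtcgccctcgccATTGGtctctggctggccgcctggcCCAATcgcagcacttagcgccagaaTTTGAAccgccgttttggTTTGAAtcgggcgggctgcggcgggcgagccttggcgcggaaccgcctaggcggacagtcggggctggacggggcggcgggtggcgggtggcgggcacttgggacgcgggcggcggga
Top2a: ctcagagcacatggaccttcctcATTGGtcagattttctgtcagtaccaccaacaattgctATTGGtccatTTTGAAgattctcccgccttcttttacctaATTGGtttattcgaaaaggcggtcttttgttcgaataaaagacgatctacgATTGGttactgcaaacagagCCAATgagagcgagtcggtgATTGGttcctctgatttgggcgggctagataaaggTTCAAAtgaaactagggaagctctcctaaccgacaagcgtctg
Ccnb2: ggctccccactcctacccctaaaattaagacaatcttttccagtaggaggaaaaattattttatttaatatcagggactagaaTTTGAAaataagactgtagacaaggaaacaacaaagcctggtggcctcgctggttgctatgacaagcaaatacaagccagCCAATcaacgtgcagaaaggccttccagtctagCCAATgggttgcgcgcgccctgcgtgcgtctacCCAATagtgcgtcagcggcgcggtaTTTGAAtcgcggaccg
Cit: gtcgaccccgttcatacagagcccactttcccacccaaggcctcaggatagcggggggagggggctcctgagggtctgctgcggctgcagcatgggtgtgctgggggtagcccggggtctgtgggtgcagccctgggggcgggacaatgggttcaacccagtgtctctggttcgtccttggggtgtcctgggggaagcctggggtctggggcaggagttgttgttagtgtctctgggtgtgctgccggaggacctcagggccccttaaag
These stretches lie at chr7:135716360-135716629 on the minus strand for Mki67, chr11:99024170-99024439 on the minus strand for Top2a, chr9:70421535-70421804 on the minus strand for Ccnb2 and chr5:115845406-115845675 on the plus strand for Cit. In Mki67 the CHR cores began 116 and 98 bases before the start. In Ccnb2 the 3 CCAAT boxes began 87, 54 and 21 bases before it, and a CHR core began at base 5, counted from the start base itself.

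Among the 30 genes with a promoter, 22 (73.3%) held a CHR core, searched on both strands, against 14.9% of the 9481 tested genes with a promoter and 20.2% of all 27025 genes of the table with one. A CCAAT box, also on both strands, was found in 22 of 30 (73.3%), against 42.9% of tested genes. Both motifs stood in the windows of 18 of 30 (60%), against 6.06% of tested genes. In the other 88 mitosis genes with a promoter the CHR share was 50.0%, and in 23 DNA replication genes it was 13%, while the CCAAT shares were 65.9% and 65.2%. Counted over windows, a CHR core was in 17.9% and a CCAAT box in 37.4% of all 32851 promoters. Matches are letters in a window and no measure of binding. The CHR core did not sort the genes by their DT difference: the median log2 fold change, averaged over the tissues, was 1.51 for the 22 genes with a core and 1.85 for the 8 without.

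**Figure D1:**
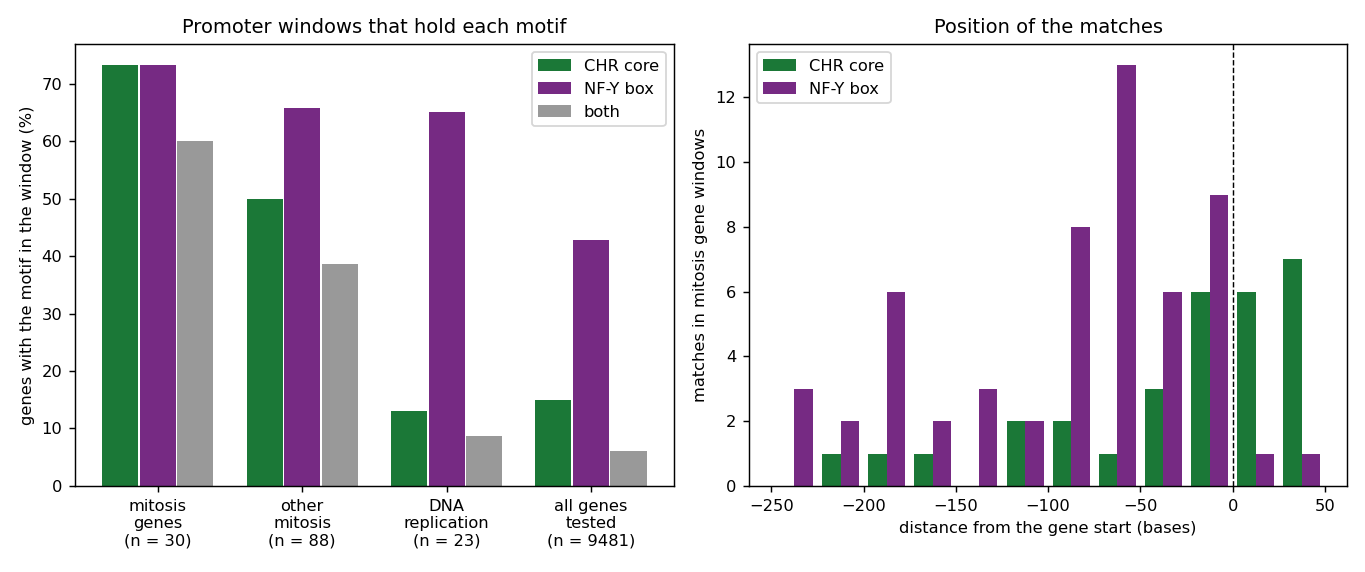
Left, percentage of genes whose promoter window holds a CHR core, an NF-Y box (CCAAT) or both, in the mitosis genes, the other mitosis genes, DNA replication genes and all tested genes with a promoter. Right, number of matches in the windows of the mitosis genes by distance in bases from the gene start (dashed line). The CHR share was 73.3% in the mitosis genes and 14.9% in all tested genes.

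Total counts per library ran from 3929560 to 10744934. The 8 NK markers summed to 9348 to 21990 CPM (counts per 1000000 of the TMM-scaled library size) per library, and the 8 T cell markers to 37.7 to 484 CPM. Markers of other cells and RNA quality differed between DT and PBS libraries. In LN the 8 B cell markers summed to 72.4 to 126 CPM with PBS and to 183, 946, 954 and 152 CPM in DT libraries 1 to 4 (exact two-sided permutation p = 0.0286, the smallest that 4 against 4 can give, and 0.257 adjusted over 9 measures). The 8 plasma cell markers summed to a mean of 976 CPM in LN PBS and 1026 in LN DT (exact permutation p = 0.743, 0.8 adjusted). Of the 5 that could be tested, 1 was called, Jchain (0.0646% of all tested genes were called higher in LN), with means of 0.0613 and 201 CPM, and their median log2 fold change was 0.41. In LN PBS, where Jchain was near 0, other markers carried the sum, so similar sums do not show similar plasma cell content. The mitochondrial share of counts in LN was 1.05 to 1.68% with PBS and 4.93, 4.18, 4.01 and 1.24% in DT libraries 1 to 4, and Malat1, a nuclear RNA, had means of 2641 and 8387 CPM (both exact permutation p = 0.114, 0.342 adjusted). Averaged over the tissues, 4 of 5 mitochondrial and nuclear RNAs used as a quality list rose (against 2.47% of all tested genes), with a median of 1.35. In lung the NK sum was 18590 CPM with PBS and 12780 with DT, the dendritic cell sum 83.1 and 158 CPM, and the mitochondrial share of counts 1.65% and 3.75%, each with an exact permutation p of 0.0286 (0.0858 adjusted). The myeloid sums of lung DT 2 and 3 were 3887 and 3251 CPM, and that of lung PBS 2 was 2289. Whether any of these bears on the mitosis genes was not tested, and in bulk RNA fewer cells of a type and less RNA per cell cannot be told apart.

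The DT comparison asked whether NK cells of toxin-treated mice differ from those of PBS mice in each tissue. Transcripts of mitosis genes stood higher with DT in both tissues: their summed level was 549 ± 118 CPM in LN PBS and 1013 ± 203 in LN DT, and 749 ± 77.8 CPM with PBS and 1888 ± 1142 with DT in lung (SD, n = 4). The ranges did not overlap in either tissue, with 415 to 699 against 717 to 1156 CPM in LN and 633 to 799 against 1271 to 3601 CPM in lung. The log2 fold change was above 0 in both tissues for 30 of the 35 genes. It was above 0 in LN alone for Bub1b, Aurka and Kif2c and in lung alone for Stmn1 and Hmgb2, and below 0 in both for 0 genes.

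In LN, 33 of 35 genes had a log2 fold change above 0, with a median of 1.25 against 0.08 over all tested genes. A gene was called where the Benjamini-Hochberg adjusted p over all 13940 genes, from edgeR's quasi-likelihood test, was under 0.05. On that rule 0 of the 35 were called higher (0.0646% of all tested genes were) and 0 lower (0%). At an unadjusted p under 0.05, 15 were higher and 0 lower (8.29% and 3.52% of all). DESeq2 called 6 higher (1.87% of all genes it tested) and limma-voom with quality weights 24 (14.9% of all). With the percentage of mitochondrial counts as a covariate the median was 0.92. The 4 LN DT libraries lay wholly above the 4 LN PBS libraries for 14 of 35 genes, against 5.05% of all tested genes. These were Ccnb1, Ccnb2, Cks1b, Ttk, Cenpa, Cenpe, Cenpf, Knl1, Kif11, Tpx2, Nusap1, Cit, Mki67 and Top2a. The reverse held for 0 genes (3.42% of all). Leaving out LN DT 4 gave 4 calls (Cenpe, Knl1, Cit and Mki67), and so did leaving out lung DT 1 (Cenpe, Cit, Mki67 and Top2a). The share of all genes called in those fits is not given.

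In lung, Knl1, Cit, Mki67 and Top2a rose, 4 of 35 genes against 0.0574% of all tested genes, and 0 fell (0.0502% of all). The log2 fold change was above 0 for 32 of 35, with a median of 1.83 against 0.09 over all genes, and 21 were higher at an unadjusted p under 0.05 (7.66% of all). DT and PBS libraries did not overlap for 13 genes, all higher with DT (3.35% of all tested genes, and 4.53% lower): Cdk1, Ccnb2, Cks1b, Ube2c, Cenpf, Spc25, Knl1, Aurkb, Birc5, Kif23, Cit, Mki67 and Top2a. Without lung DT 1 the median was 0.81 and the same 4 genes were called. The number called was 0 without lung PBS 1 or without lung PBS 2, 1 (Mki67) without lung PBS 3 or without lung PBS 4, and 0 with the percentage of mitochondrial counts as a covariate (median 1.22). DESeq2 called 14 in lung (2.15% of all genes it tested).

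Averaged over the tissues, 12 of 35 genes rose (34.3%, against 2.47% of all tested genes) and 0 fell (1.43% of all). The log2 fold change was above 0 for 33 of 35, with a median of 1.48 against 0.09 over all genes, and 24 were higher at an unadjusted p under 0.05 (13.7% of all). By role, the calls fell on 2 of 6 entry genes, 1 of 6 checkpoint genes, 4 of 6 kinetochore genes, 1 of 7 spindle genes, 2 of 7 passenger and cytokinesis genes and 2 of 3 chromatin genes. The role medians ran from 1.07 for the checkpoint genes to 2.14 for the kinetochore genes. Cenpe, Knl1, Cit, Mki67 and Top2a were called whichever of the 16 libraries was left out. The count was 5 without lung PBS 1 or 3, 6 without LN PBS 4, LN DT 2 or LN DT 3, 7 without lung PBS 2, 6 without both DT libraries numbered 2 and 3, and 0 with the mitochondrial share as a covariate, which left a median of 1.12. DESeq2 and limma-voom each called 23 (8.1% and 14% of all genes they tested). With libraries of 1 number and treatment as a random block limma-voom called 21, for which the share of all genes is not given.

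**Figure D2:**
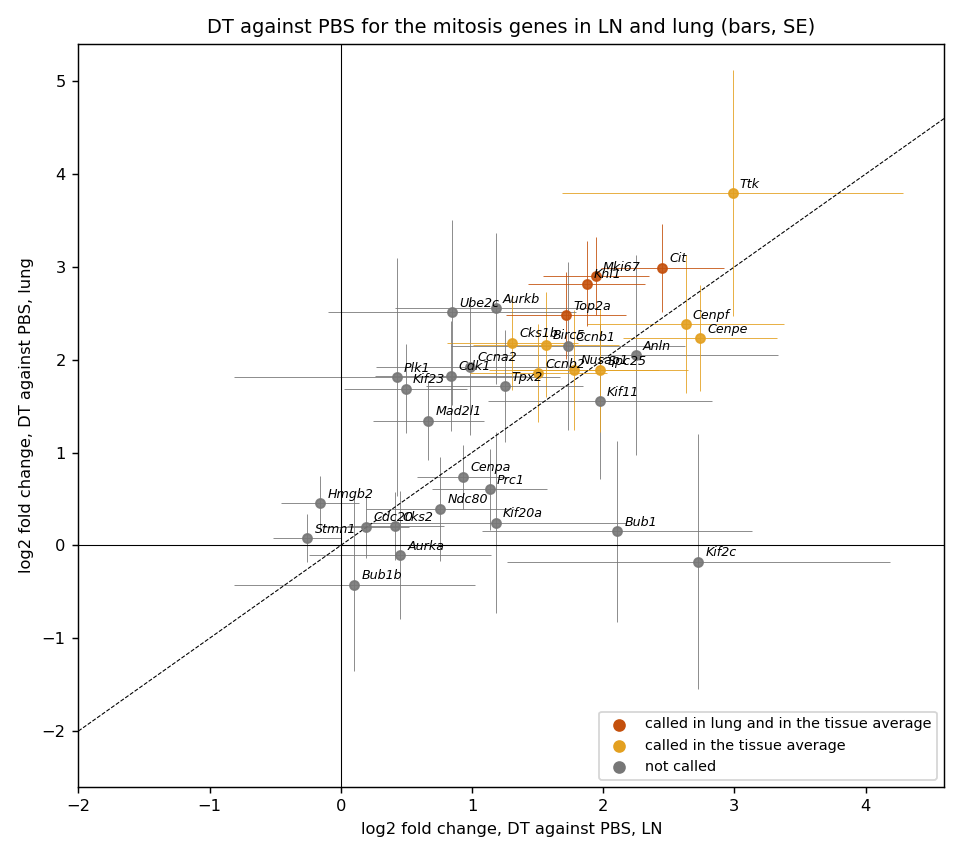
Log2 fold change of DT against PBS in LN (horizontal) and in lung (vertical) for the 35 mitosis genes, with standard errors as bars, the diagonal dashed, and colour for the genes called. The values are above 0 in both tissues for 30 genes, and the 12 called genes lie between 1.31 and 2.99 in LN and between 1.86 and 3.79 in lung.

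Of the 6 kinetochore genes, 4 rose on average and 1, Knl1, in lung. Knl1, the scaffold that recruits checkpoint proteins to the kinetochore, stood at 5.57, 3.88, 9.29 and 8.71 CPM in LN PBS libraries 1 to 4 and at 38.6, 19.01, 30.6 and 12.8 CPM in LN DT. In lung it stood at 7.84, 3.61, 10.03 and 9.31 CPM in lung PBS and at 74.5, 65.2, 37.5 and 42.1 CPM in lung DT. Every DT library was above every PBS library in both tissues, and the lowest lung DT library was several times the highest lung PBS one. Its log2 fold change was 1.87 ± 0.44 in LN (SE, adjusted p = 0.139), 2.82 ± 0.46 in lung (0.0162) and 2.35 ± 0.32 on average (0.00178).
Cenpe, the kinesin that carries chromosomes to the spindle equator, stood at 2.73, 5.45, 3.97 and 5.66 CPM in LN PBS libraries 1 to 4 and at 49.7, 26.1, 31.2 and 12.2 CPM in LN DT. In lung the values were 9.53, 6.66, 13.9 and 11.1 CPM with PBS and 111, 12.9, 41.5 and 28.6 CPM with DT. The LN groups were apart, whereas lung DT 2 fell inside the PBS range. The average log2 fold change was 2.48 ± 0.41 (adjusted p = 0.00798).
Cenpf, a large protein of the outer kinetochore, had 2.103, 1.21, 6.94 and 2.04 CPM in LN PBS and 22.6, 19.2, 26.6 and 7.82 CPM in LN DT. Lung libraries held 7.25, 7.77, 5.802 and 2.48 CPM with PBS and 84.8, 10.4, 13.02 and 13.1 CPM with DT. The groups did not overlap in either tissue, although lung DT 1 alone lay far above the other lung libraries. Cenpf rose by 2.51 ± 0.53 on average (log2, adjusted p = 0.0216), and by 1.79 without lung DT 1 (0.0262).
Spc25, a subunit of the Ndc80 complex that grips microtubules, had 9.57, 5.21, 16.9 and 5.09 CPM in LN PBS and 72.3, 23.6, 37.2 and 11.9 CPM in LN DT. In lung it had 16.4, 13.3, 27.4 and 27.4 CPM with PBS and 210.3, 44.96, 30.6 and 27.9 CPM with DT. LN DT 4 lay inside the LN PBS range, and lung DT 4 was barely above the highest lung PBS libraries. The average log2 fold change was 1.93 ± 0.47 (adjusted p = 0.0358), and 1.28 without lung DT 1 (0.0434).
Ndc80, its partner in that complex, differed by 0.58 ± 0.40 on average and did not pass the test (adjusted p = 0.399). Cenpa, the histone variant that marks centromeres, had the highest mean CPM of the kinetochore genes, with 56.5, 25.7, 50.2 and 41.2 CPM in LN PBS and 69.2, 101, 102 and 58.8 CPM in LN DT. Lung libraries had 49.7, 38.6, 85.2 and 115 CPM with PBS and 159.7, 99.4, 92.9 and 130.3 CPM with DT. The LN groups were apart by a narrow gap and the lung groups overlapped. Its average of 0.84 ± 0.25 missed the threshold (adjusted p = 0.0612).

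The proliferation marker Mki67, which coats mitotic chromosomes, and Top2a, the topoisomerase that untangles sister chromatids, rose in lung and on average. Mki67 stood at 5.78, 14.4, 12.9 and 16.3 CPM in LN PBS libraries 1 to 4 and at 68.5, 43.6, 50.9 and 27.2 CPM in LN DT. In lung it stood at 27.1, 19.2, 24.4 and 11.3 CPM in lung PBS and at 245, 133, 149.8 and 86.5 CPM in lung DT. No DT library reached down to a PBS library of its tissue, and LN DT 4 and lung DT 4 were the lowest of their groups. The log2 fold change was 1.94 ± 0.40 in LN (adjusted p = 0.0893), 2.90 ± 0.42 in lung (0.0129) and 2.42 ± 0.29 on average (0.000665).
Top2a had 25.2, 15.3, 27.4 and 35.2 CPM in LN PBS and 125, 88.7, 82.8 and 41.7 CPM in LN DT. Lung libraries had 42.7, 26.1, 33.96 and 20.9 CPM with PBS and 383, 118, 96.4 and 94.6 CPM with DT. The groups were again apart, with lung DT 1 far above the other 3, which lay close together. The lung difference was 2.48 ± 0.47 (adjusted p = 0.0491), or 1.68 without lung DT 1, where it was still called, and the average 2.10 ± 0.33 (0.00665).
Hmgb2, a DNA-bending chromatin protein, behaved otherwise. It held 145, 136, 165 and 189 CPM in LN PBS and 147, 135, 125 and 160.4 CPM in LN DT. Lung PBS had 167, 169.8, 122 and 114 CPM and lung DT 360.4, 142, 135 and 145 CPM. The groups overlapped in both tissues and lung DT 1 alone stood out. Its average log2 fold change was 0.15 ± 0.21 (adjusted p = 0.704), and it was -0.14 without lung DT 1.

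**Figure D3:**
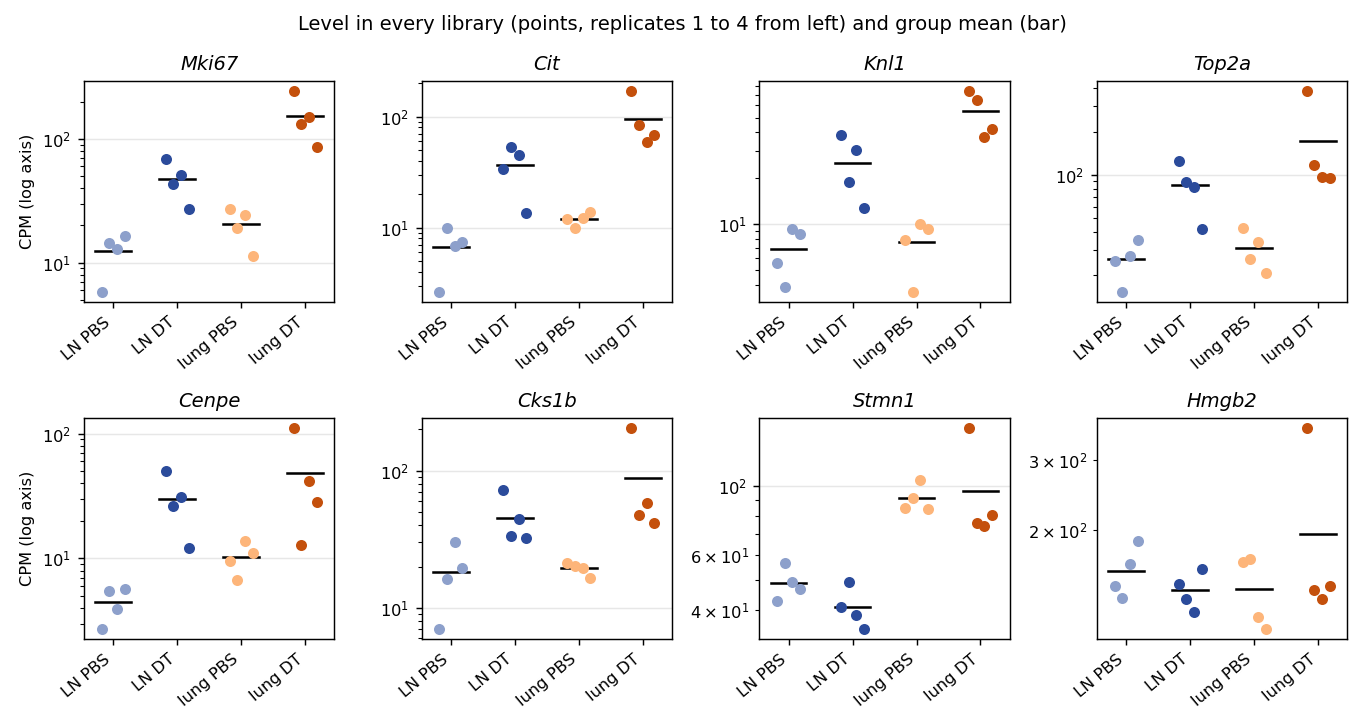
CPM on a log axis for 8 genes in each library (points, replicates 1 to 4 from left to right within a group) with the group mean as a bar. DT libraries lie wholly above PBS libraries in both tissues for Mki67, Cit, Knl1, Top2a and Cks1b, and the groups overlap for Stmn1 and Hmgb2.

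Of the passenger and cytokinesis genes, Cit and Birc5 rose. Cit encodes citron kinase, which acts at the midbody in the last step of division. It stood at 2.63, 9.94, 6.82 and 7.35 CPM in LN PBS libraries 1 to 4 and at 33.6, 53.6, 45.4 and 13.4 CPM in LN DT. In lung it stood at 11.9, 9.99, 12.2 and 13.8 CPM in lung PBS and at 169.9, 84.4, 59.4 and 68.1 CPM in lung DT. All DT libraries were above all PBS libraries of the same tissue, and LN DT 4 came closest to the PBS range. The log2 fold change was 2.45 ± 0.47 in LN (adjusted p = 0.066), 2.99 ± 0.48 in lung (0.0162) and 2.72 ± 0.33 on average (0.000665).
Birc5, or survivin, the passenger subunit that brings Aurora B to the centromere, had 16.6, 3.51, 19.95 and 8.94 CPM in LN PBS and 40.6, 38.8, 47.3 and 18.3 CPM in LN DT. Lung libraries had 14.99, 13.6, 14.4 and 11.1 CPM with PBS and 141, 35.7, 44.03 and 21.6 CPM with DT. LN DT 4 fell below the highest LN PBS library, while the lung groups were apart. The average was 1.86 ± 0.40 (adjusted p = 0.0228).
The other 5 did not pass on average. Aurkb, the Aurora B kinase, differed by 1.87 ± 0.56 (adjusted p = 0.0643). Its lung DT values were 8.03, 34.3, 13.98 and 34.7 CPM against 6.45, 4.16, 4.84 and 0 CPM with PBS, with library 1 the lowest of the DT group here. Kif23, a kinesin of the central spindle, had 15.99, 12.8, 21.3 and 11.8 CPM in lung PBS and 62.8, 37.4, 56.5 and 42.8 CPM in lung DT, groups well apart, but overlapped in LN, and averaged 1.09 ± 0.33 (0.0693). Prc1, which bundles central spindle microtubules, averaged 0.87 ± 0.31, Anln, a scaffold of the contractile ring, 2.15 ± 0.77 and the kinesin Kif20a 0.71 ± 0.70. Adjusted p-values were 0.105, 0.107 and 0.561. Exons of Kif20a and Prc1 overlap Cdc23 and Rccd1 on the opposite strand by 29.3% and 11.1% of their length, and the sources used here do not give whether counting used strand.

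Of the entry genes, Ccnb2 and Cks1b rose. Ccnb2, a B-type cyclin, had 9.04, 5.33, 15.99 and 9.84 CPM in LN PBS and 30.8, 31.03, 25.2 and 27.3 CPM in LN DT. In lung it had 20.1, 10.8, 21.5 and 14.2 CPM with PBS and 152, 24.8, 41.7 and 23.7 CPM with DT. The LN DT libraries were tightly grouped above the LN PBS libraries, while in lung DT libraries 2 and 4 were just above the PBS range. The average log2 fold change was 1.68 ± 0.37 (adjusted p = 0.0249).
Cks1b, a small subunit of cyclin-dependent kinases, had 7.05, 16.4, 30.4 and 19.6 CPM in LN PBS and 71.96, 33.3, 44.04 and 32.5 CPM in LN DT. Lung libraries had 21.2, 20.3, 19.6 and 16.5 CPM with PBS and 205, 47.3, 57.9 and 41.8 CPM with DT. The groups did not overlap in either tissue, and the lung PBS libraries were nearly equal. The average was 1.75 ± 0.36 (adjusted p = 0.019). Reads of Ccnb2 and Cks1b may be shared with their copies Ccnb2-ps and Cks1brt, so these values are less certain.
Cdk1, the mitotic kinase itself, averaged 1.34 ± 0.41 (adjusted p = 0.0722), Ccnb1, the other B-type cyclin, 1.94 ± 0.63 (0.0845) and Ccna2, cyclin A, 1.46 ± 0.52 (0.105). None of these 3 passed, and 12.5% of the exons of Ccna2 overlap Exosc9 on the opposite strand. Cks2, the paralogue of Cks1b, averaged 0.31 ± 0.26 (0.494).

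Of the checkpoint genes and the ligase they restrain, Ttk rose. Ttk, the kinase at the head of the checkpoint, had 2.31, 0.121, 0.372 and 1.24 CPM in LN PBS and 12.2, 10.2, 7.58 and 2.97 CPM in LN DT. Lung libraries had 3.28, 1.39, 1.57 and 1.99 CPM with PBS and 105, 0, 9.28 and 2.23 CPM with DT. The LN groups were apart, but in lung 1 library was very high and another had 0 counts, where 3 counts would be 0.374 CPM. The average was 3.39 ± 0.93 (adjusted p = 0.0494), and Ttk was called in 3 of the 16 fits that left out 1 library. Without lung DT 1 it was 1.86 (adjusted p = 0.132), and the lung value was 0.81 in place of 3.79.
Mad2l1, which encodes the checkpoint effector MAD2, had 48.5, 26.2, 28.3 and 34.5 CPM in LN PBS and 91.8, 43.3, 48.5 and 34.8 CPM in LN DT. Lung libraries had 28.6, 17.5, 29.01 and 40.96 CPM with PBS and 149, 50.7, 56.1 and 39.3 CPM with DT. Both tissues overlapped, and library 1 was the highest in both DT groups. The average of 1.01 ± 0.30 did not pass (adjusted p = 0.0641).
Ube2c, the ubiquitin-conjugating enzyme of the anaphase-promoting complex, averaged 1.68 ± 0.68 (adjusted p = 0.151), and 22.8% of its exons overlap Tnnc2 on the opposite strand. Cdc20, which activates that complex, averaged 0.20 ± 0.23 (0.644). The checkpoint kinase Bub1 averaged 1.13 ± 0.70 and Bub1b, which encodes BUBR1, -0.16 ± 0.65 (0.347 and 0.907). Counts of both Bub genes were low, with group means of 1.37 to 7.25 CPM for Bub1 and 3.33 to 6.69 CPM for Bub1b.

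Of the spindle genes, Nusap1 rose. Nusap1, a microtubule-binding protein of the spindle, had 1.68, 4.24, 6.69 and 9.39 CPM in LN PBS and 23.3, 16.2, 26.5 and 9.47 CPM in LN DT. Lung libraries had 12.8, 6.94, 8.702 and 9.81 CPM with PBS and 90.96, 23.3, 9 and 19.4 CPM with DT. The LN groups met almost at one value, and lung DT 3 lay inside the PBS range. The average was 1.83 ± 0.46 (adjusted p = 0.0385), called in 5 of the 16 fits that left out 1 library.
Stmn1, which encodes stathmin, a microtubule destabiliser, had the highest mean CPM of the spindle genes. It had 42.6, 56.5, 49.2 and 46.8 CPM in LN PBS and 40.95, 49.1, 38.5 and 34.8 CPM in LN DT. Lung libraries had 85.2, 91.6, 105 and 84.3 CPM with PBS and 154, 75.9, 74.6 and 80.8 CPM with DT. Only lung DT 1 stood above the PBS libraries of its tissue, and the other 3 were below all of them. The average was -0.090 ± 0.18 (adjusted p = 0.796).
Kif11, the kinesin that pushes spindle poles apart, averaged 1.76 ± 0.60 and Tpx2, an activator of Aurora A, 1.48 ± 0.43 (adjusted p = 0.0932 and 0.0568). Neither passed, nor did the polo kinase Plk1 (1.12 ± 0.89, 0.469), the microtubule depolymerase Kif2c (1.27 ± 0.99, 0.456) or Aurka, the Aurora A kinase (0.17 ± 0.49, 0.858). Kif2c had 0 counts in 3 of 4 LN PBS libraries, where 3 counts would be 0.315 to 0.363 CPM, and 3.77, 8.06, 14.7 and 4.73 CPM in LN DT, while its lung means were 3.29 ± 1.79 CPM with PBS and 2.91 ± 2.196 CPM with DT (SD, n = 4).

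The DT difference was not shown to differ between the tissues. The interaction, the LN log2 fold change minus that in lung, was called for 0 of 35 genes in either direction (0.00717% of all tested genes were called higher and 0% lower). At an unadjusted p under 0.05 it was 0 of 35 as well (2.88% and 1.33% of all), and DESeq2 and limma-voom called 0. The fold change was larger in lung for 21 of 35 genes, with a median interaction of -0.35. That direction turned without lung DT 1 (14 of 35, median 0.22), without both DT libraries numbered 1 (13, 0.30) and by limma-voom (9, 0.60), and without LN PBS 3 it was 17 of 35 with a median of 0.005. Its standard errors were wide: Mki67 differed by -0.96 ± 0.55, Kif23 by -1.19 ± 0.66 and Kif2c by 2.90 ± 1.98.

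Between the tissues, 1 of 35 genes (2.86%) was called higher in lung with PBS, near the share of all tested genes, and 4 (11.4%) with DT. The log2 fold change was above 0 for 28 of 35 with PBS (median 0.73) and 32 with DT (median 0.81), against 49.3% and 47.8% of all. Over the alternatives the PBS median ran from 0.55 to 0.91. The DT median ran from 0.034 (limma-voom) to 1.58, and was 0.25 without lung DT 1. With PBS, Cks2 was the 1 gene called, higher in lung (2.7% of all tested genes were called higher) by 1.76 ± 0.38 (adjusted p = 0.0122). Cks2 stood at 11.6, 11.4, 9.29 and 7.81 CPM in LN PBS and 19.96, 33.03, 35.7 and 47.5 CPM in lung PBS. All lung values were above all LN values, as they also were for Cenpe, Stmn1 and Cit (4 of 35 genes, against 9.25% of all; 0 were wholly lower, against 9.91%). With DT, 4 of 35 genes were called higher in lung, against 3.97% of all: Cks2 by 1.56 ± 0.38 (0.018), Stmn1 by 1.24 ± 0.26 (0.00847), Kif23 by 1.86 ± 0.48 (0.026) and Mki67 by 1.69 ± 0.40 (0.016). The lung libraries lay wholly above the LN ones for 6 (5.57% of all), namely these 4, Cdc20 and Cit, and wholly below for 0 (6.08% of all). In both comparisons 0 of 35 genes were called lower in lung (0.904% and 2.78% of all). Markers of other cells differed between the tissues too. For lung against LN, the median log2 fold change of the tested myeloid markers was 4.16 with PBS and 5.6 with DT. It was -1.28 and -2.77 for B cell, -2.20 and -1.20 for T cell and 0.19 and -0.19 for NK markers. Whether these differences bear on the mitosis genes was not tested. The PBS call was lost without LN PBS 4, and a second gene was called without lung DT 1 or LN DT 1 (Stmn1) and without LN PBS 3 (Kif2c). With DT, 1 gene (Stmn1) was called without LN DT 4 and 0 without the DT libraries numbered 2 and 3. With the number within a treatment as a block, 2 were called with PBS (Cks2 and Stmn1) and 5 with DT, these 4 and Knl1. For these alternative fits the share of all genes called is not given. Same-numbered LN and lung libraries tended to deviate together under DT (correlations of 0.184 to 0.412), and the main fit leaves this out. Same-numbered libraries of unlike treatment in the same tissue reached 0.207.

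The libraries of a group did not share the difference equally. For each library the median over the 35 genes of the log2 difference from the PBS mean of its tissue was 1.45, 1.51, 2.12 and 0.95 in LN DT 1 to 4, and 2.80, 0.72, 1.24 and 0.98 in lung DT 1 to 4. PBS libraries ran from -0.62 to 0.76. Within each tissue all DT medians were above all PBS medians, which reached at most 0.76 in LN and 0.26 in lung. The 0.76 was that of LN PBS 3, the highest of its group for 19 of 35 genes. Lung DT 2 (0.72) was below that LN library but above all lung PBS libraries. Lung DT 1 also had the fewest genes with a count, 14032, a T cell marker sum of 426 CPM against 59.7 to 75.3 in the other lung DT libraries, and a Malat1 level of 17160 CPM. LN DT 1 had a B cell sum of 183 CPM and a median of 1.45, and LN DT 2 and 3, with B cell sums of 946 and 954 CPM, had 1.51 and 2.12. LN DT 4 had 1.24% mitochondrial counts, within the LN PBS range, a B cell sum of 152 CPM, above all 4 LN PBS libraries, and a median of 0.95. Lung DT 4, with myeloid and B cell sums of 139 and 10.9 CPM, both below all 4 lung PBS libraries, had 0.98. Its dendritic sum of 125 CPM and mitochondrial share of 3.11% were above all 4 lung PBS libraries, and its NK sum of 14420 CPM was below them.

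**Figure D4:**
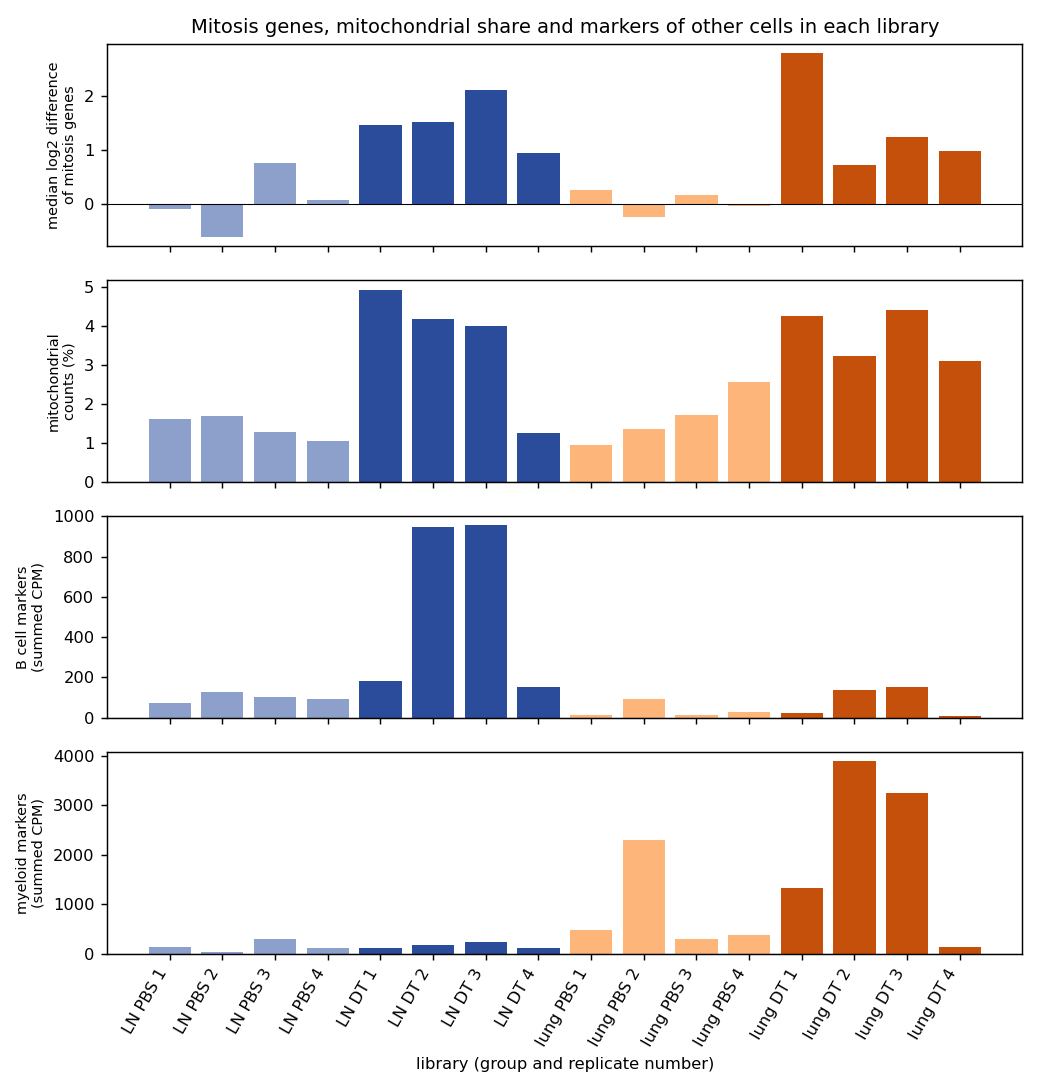
For each of the 16 libraries, from top to bottom, the median log2 difference of the 35 mitosis genes from the PBS mean of the tissue, the percentage of counts from mitochondrial genes, the summed CPM of 8 B cell markers and that of 8 myeloid markers. LN DT 4 has a median of 0.95, the lowest of its group, a mitochondrial share of 1.24% and a B cell sum of 152 CPM. Lung DT 4 has a median of 0.98, a myeloid sum of 139 CPM and a mitochondrial share of 3.11%, above all lung PBS libraries.

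Per kilobase of exon the genes covered a wide range of levels. The median of the 35 was 1.93 RPKM with PBS and 4.24 with DT in LN, which put it at percentiles 32.7 and 45.1 of the tested genes. In lung it was 2.04 and 6.42 RPKM, at percentiles 33.4 and 55. Hmgb2 was among the 3 highest in all 4 groups, with 52.8 ± 7.79 (PBS) and 47.3 ± 5.09 (DT) RPKM in LN and 47.7 ± 9.78 (PBS) and 65.2 ± 36.6 (DT) in lung (SD, n = 4). In lung PBS it did not differ beyond its spread from its neighbours Cks2 (49.2 ± 16.4) and Stmn1 (47.6 ± 4.86). With DT Cks1b reached 40.4 ± 16.4 RPKM in LN and 78.1 ± 69.5 in lung, a spread that spans its neighbours. Anln was among the 3 lowest throughout, at 0.181 ± 0.158 RPKM in LN PBS and 1.17 ± 0.625 in lung DT. Hmgb2, Stmn1 and Cks2, each among the 4 highest of the 35 in both PBS groups, were not called in any DT comparison.

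Other mitosis genes, from a list of 108 of which 107 could be tested, lay mostly on the same side of 0. None was called in LN or in lung, where 0.0646% and 0.0574% of all tested genes were called higher. In LN and lung, 24 and 39 were higher at an unadjusted p under 0.05 (8.29% and 7.66% of all tested genes). Above 0 were 84 and 85 of 107 (54.6% and 54.5% of all). Averaged over the tissues 18 rose (16.8%, against 2.47% of all tested genes) and 1 fell (0.935%, against 1.43% of all), with a median of 0.86. Ncapg2, a condensin subunit, rose by 2.15 ± 0.38 (adjusted p = 0.00887), from 9.14 ± 5.06 to 60.6 ± 11.5 CPM in lung (SD, n = 4). Spag5, a spindle and kinetochore protein also called astrin, rose by 2.75 ± 0.55 (0.017) and Aspm, a spindle pole protein, by 3.12 ± 0.72 (0.0295). Other calls included the kinetochore genes Cenpw (1.37) and Spc24 (1.86), the kinesins Kif15 (2.16) and Kif22 (1.52), Tacc3 of the spindle (1.26) and Cdca8, the passenger subunit borealin (2.03). The 1 gene that fell, by 0.72 (adjusted p = 0.038), was Mad2l1bp, which encodes an antagonist of MAD2 and was at 169 ± 21.96 CPM in lung PBS and 92.3 ± 4.61 in lung DT. In LN the smallest p-values belonged to Cenpw (1.60 ± 0.38), Mastl (2.93 ± 0.71) and Spag5 (2.94 ± 0.78), and in lung to Ncapg2 (2.73 ± 0.54), Kif22 (2.01 ± 0.45) and Cenpm (3.28 ± 0.76), with adjusted p from 0.0623 to 0.172.

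Genes of DNA replication, which precedes mitosis, included 6 that rose on average of 28 (21.4%, against 2.47% of all tested genes), with a median of 0.56. The 3 of smallest p were Pola1, the primase-bound polymerase, by 1.33 ± 0.24 (adjusted p = 0.0111), thymidine kinase Tk1 by 1.37 ± 0.26 (0.0147) and thymidylate synthase Tyms by 1.87 ± 0.37 (0.0168). Over the 16 libraries, which share group differences and library quality, the genes whose log2 CPM most resembled the mean of the 35 were Rrm2 (Pearson r = 0.96), Hmmr (0.94), 2810417H13Rik (0.92), Ccne2 (0.91) and Spc24 (0.90).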

How the data were processed

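The submitters' processing notes name HISAT2, HTSeq and the build GRCm38; for their versions and any strand setting, the sources used here give nothing. The deposited table holds raw counts per gene from the authors, and every row names a gene. Symbols and positions come from that table, exon lengths from GENCODE M21 and promoters from RefSeq (GRCm38.p6). Depth was 3929560 to 10744934 counts per library, so counting error was largest for genes near 0. The 35 genes and all lists were chosen with earlier results of these data known.

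Genes were filtered with filterByExpr (minimum count 10, minimum total 15), given TMM factors, and tested with edgeR 4.0.16 under R 4.3.3 (glmQLFit with robust=TRUE, then the quasi-likelihood F test). All 16 libraries entered 1 model with a mean for each of the 4 groups, leaving 12 residual degrees of freedom. P-values are two-sided and Benjamini-Hochberg adjusted over 13940 genes, and SE is that implied by the F statistic. The average over tissues is the mean of the LN and lung log2 fold changes. Library differences use log2 CPM with a prior count of 2. RPKM is CPM per kilobase of merged exons. Marker sums were compared by exact permutation. The steps were tested on simulated data.

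Values per library are given for genes called in a DT comparison and, in each role, for the gene of smallest p on average and that of highest mean CPM, with further values where a sentence needs them, chosen after they were seen. From the other mitosis list, called genes are named, at most 10, or the 3 of smallest p where fewer than 3 were called. From the replication list the 3 of smallest p are named. Alternatives were median-ratio factors, total counts, no filter, robust=FALSE, DESeq2 1.42.0, limma 3.58.1 voom with quality weights, the replicate number as a block, the mitochondrial share as a covariate, each library left out, and both DT libraries numbered 1 left out. Leaving out the DT libraries numbered 2 and 3 was chosen after seeing the data. The labels do not say that a number marks a shared mouse. Same-numbered LN and lung libraries correlated above 0.1 in 4 of 4 DT pairs (0.184 to 0.412) and 1 of 4 PBS pairs. Same-numbered libraries of unlike treatment, which cannot share a mouse, also passed 0.1 in 2 of 8 pairs of the same tissue (highest 0.207). With tissue and treatment both unlike it was 1 of 8 (0.144). Whether the numbers mark pairs under DT is therefore not settled. The edgeR model treats all libraries as independent. Its p-values for the interaction, the tissue comparisons and the average over tissues leave any such pairing out. That average was also fitted with number within treatment as a random block (limma duplicateCorrelation, correlation 0.224), chosen after seeing the data. This block also groups the PBS libraries, with the same correlation for both treatments. Of the other genes, 4 symbols were matched by Ensembl ID. A gene selected by the naming rule is not reported here.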

Additional observations from a re-analysis of the deposited data

Results flagged for a closer look

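Of 64 sets of 4 libraries (16 genes in 4 groups), 10 held a library set apart from the rest. Its gap to its nearest neighbour was a larger part of the whole range than Dixon's 95% critical value allows. Chance flags about 1 in 20 sets of independent normal values. CPM need not be normal and the 16 genes share libraries, so the 10 cannot be judged against that rate. Lung DT 1 was that library in 9 of them, each time as the highest: Ccnb2 at 152 CPM, Cks1b at 205, Mad2l1 at 149, Ttk at 105, Cenpf at 84.8, Spc25 at 210.3, Stmn1 at 154, Top2a at 382.5 and Hmgb2 at 360.4 CPM. The remaining one was LN PBS 3 for Cenpf, at 6.94 CPM, above the other LN PBS libraries. Mki67, Cit and Knl1, which were called in lung, had no such library in any group.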

How the results depend on the processing

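The limits are depth for rare genes such as Kif2c and Bub1, 4 libraries a group, and a mitochondrial share that was higher in all lung DT libraries and in LN DT 1 to 3 than in any PBS library of the tissue. Median-ratio factors, total counts and robust=FALSE changed no count of called genes by over 1.5 times. In LN (0 called higher) the count was 3 with no filter, 6 by DESeq2, 24 by limma-voom (25 with the random block of number within treatment, added after seeing the data), 1 without both DT libraries numbered 1, and 0 to 4 with 1 library left out. In lung (4) it was 14 by DESeq2, 0 with the mitochondrial covariate and 0 to 5 with 1 library left out. On average (12) it was 23 by DESeq2 and by limma-voom (21 with the random block), 0 with the covariate, 6 without the DT libraries numbered 2 and 3 and 5 to 16 with 1 left out. For lung against LN with PBS (1) it was 2 by DESeq2, 4 by limma-voom (11 with the random block), 2 without both DT libraries numbered 1 and 0 to 2 with 1 left out. With DT (4) it was 0 without the DT libraries numbered 2 and 3 and 1 to 4 with 1 left out. The cause was not tested. Shares of all tested genes stand above for the main fit and for some DESeq2 and limma-voom counts. The other counts have none beside them, so they cannot be set against all genes.

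The median interaction, -0.35, was 0.60 by limma-voom (0.52 with the random block), 0.30 without both DT libraries numbered 1 and -0.59 to 0.22 with 1 library left out. Of the 16 genes recomputed one by one in the DT comparisons, those with reversed values (log2) were Mad2l1 in LN at -0.25 with the mitochondrial covariate, and Ttk in lung at -0.44 by limma-voom (-0.38 with the random block). Stmn1 in lung was -0.22 by limma-voom (-0.21), -0.18 with the covariate, -0.31 without both DT libraries numbered 1 and -0.29 without lung DT 1 (highest 0.17 with 1 library left out). Hmgb2 in lung was -0.09 without both and -0.073 without lung DT 1 (highest 0.59 with 1 left out), and on average -0.15 by limma-voom (-0.17 with the random block), -0.14 without both and -0.14 without lung DT 1 (highest 0.21). None of these had been called.

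With the replicate number as a block the counts were 0 in LN, 4 in lung, 11 on average, 0 for the interaction, 1 with PBS and 4 with DT. With the number within a treatment as the block they were 0 for the interaction, 2 with PBS and 5 with DT. The added calls were Stmn1 with PBS and Knl1 with DT. Among the 4 libraries of the same treatment in the other tissue, the same-numbered one was the best match for 9 of 16 libraries.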
